A study of Mus musculus with 8 samples.

Results

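The 10 genes described here mark Langerhans cells, the dendritic cells of the epidermis, or belong to antigen presentation by major histocompatibility complex (MHC) class II. They are Cd207, Epcam, H2-Aa, H2-Ab1, H2-Eb1, Cd74, H2-DMa, H2-DMb1, Ciita and Cd86. They were taken by symbol, by matching the Ensembl identifiers of the count table to GENCODE M21 on the mouse build GRCm38. All 10 were found among the 34070 identifiers of the table, and all 10 passed the filter on low counts that left 19646 genes for testing. The RNA came from cell suspensions of the epidermis of adult mice, 18 to 25 weeks old, at zeitgeber time (ZT) 4, counted in hours from lights on. In the 4 Bmal1cKO libraries (K14-Cre;Bmal1flox/flox), Cre recombinase driven by the keratin 14 promoter acted in keratinocytes on the floxed Bmal1 alleles, which encode an activator of the circadian clock. The 4 Bmal1WT libraries (K14-Cre;Bmal1wt/wt) carried the same Cre with both wild-type copies, so both groups share K14-Cre. The keratin 14 promoter is active in keratinocytes, and Langerhans cells arise from blood-forming precursors. The study compared the epidermis with and without keratinocyte BMAL1.

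Langerhans cells sit among the keratinocytes, capture antigen and carry it to lymph nodes. Class II molecules are pairs of an alpha and a beta chain that are assembled with the invariant chain, the product of Cd74, and loaded with peptide in endosomes with the help of the H2-DM pair. Ciita encodes the co-activator that turns class II genes on, and it acts through proteins bound at promoter elements named the X box and the Y box. Cd207 encodes langerin, the lectin of the Birbeck granules of Langerhans cells, Epcam an adhesion molecule of Langerhans cells and of follicle keratinocytes, and Cd86 a ligand that co-stimulates T cells.

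The promoters of 3 class II genes and of Cd207 are shown with the matches to core letters of these elements. RefSeq windows on GRCm38.p6, reaching from 250 bases before to 50 after the transcript start, were matched to 6 of the 10 genes with 7 windows. A core of the X box, CTNGNAAC, and a core of the Y box, TGATTGG, were searched on both strands, and the capitals mark the matches. The letters were chosen after the sequences had been read, so the matches and misses in these windows are not a test. A window without these letters was not shown to lack the elements. The lines below give Cd207 (chr6:83677808-83678107, minus strand), H2-DMb1 (chr17:34152941-34153240, plus strand), H2-Aa (chr17:34287774-34288073, minus strand) and H2-Eb1 (chr17:34305617-34305916, plus strand), each 5′ to 3′.
Cd207: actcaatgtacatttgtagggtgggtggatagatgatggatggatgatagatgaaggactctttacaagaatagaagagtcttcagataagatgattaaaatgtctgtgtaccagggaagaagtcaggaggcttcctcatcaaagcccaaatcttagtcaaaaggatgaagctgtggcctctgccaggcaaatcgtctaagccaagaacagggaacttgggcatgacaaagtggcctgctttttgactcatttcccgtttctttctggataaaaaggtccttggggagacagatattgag
H2-DMb1: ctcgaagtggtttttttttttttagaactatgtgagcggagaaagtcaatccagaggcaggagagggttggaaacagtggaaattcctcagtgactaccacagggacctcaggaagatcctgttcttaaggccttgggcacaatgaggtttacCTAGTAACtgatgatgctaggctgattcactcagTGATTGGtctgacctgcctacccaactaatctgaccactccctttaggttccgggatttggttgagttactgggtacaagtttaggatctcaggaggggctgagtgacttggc
H2-Aa: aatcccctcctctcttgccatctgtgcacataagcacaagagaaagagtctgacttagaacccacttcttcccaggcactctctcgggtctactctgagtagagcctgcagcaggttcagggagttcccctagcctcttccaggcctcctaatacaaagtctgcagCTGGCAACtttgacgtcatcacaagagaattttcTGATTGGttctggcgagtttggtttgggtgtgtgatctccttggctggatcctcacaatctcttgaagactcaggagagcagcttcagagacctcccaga
H2-Eb1: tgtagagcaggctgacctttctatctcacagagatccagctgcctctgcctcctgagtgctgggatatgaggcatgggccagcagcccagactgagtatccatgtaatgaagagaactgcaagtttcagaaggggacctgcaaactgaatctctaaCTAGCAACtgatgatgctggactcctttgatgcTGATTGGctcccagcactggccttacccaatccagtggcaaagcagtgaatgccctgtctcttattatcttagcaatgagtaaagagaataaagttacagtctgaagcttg
H2-DMb1 and H2-Aa each held the X box core 26 bases before the Y box core, and H2-Eb1 held it 25 bases before. The X box core began 97 bases upstream of the start in H2-DMb1, 84 in H2-Aa and 94 in H2-Eb1, and the Y box core 63, 50 and 61 bases upstream in the same order. The X box core alone occurred in 13.2% of all 32851 windows and the Y box core alone in 7.82%. The X box core followed within 40 bases on the same strand by the Y box core was found in 31 windows (0.0944%), which belong to 28 gene symbols. Of these, 5 are class II chains or their regulators, H2-DMb1, H2-Aa, H2-Eb1, H2-Ob and Rfx5, and 23 are other genes, such as Plk1, Dnmt1, Ubb, Mark3 and Net1. These letters were not in the window of Cd207, in that of Epcam or in the 2 of H2-DMa. The E-box CACGTG, the sequence that BMAL1 and CLOCK bind in many promoters, occurred in 7.15% of all windows, and of the 7 windows of these genes it was in the 1 of Epcam.

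Total counts ran from 35685261 to 50396156 per library, and values are given as CPM, the count of a gene relative to the TMM-scaled library size. The labels give no sex. Xist and 4 Y-linked genes read replicates 1 and 3 as female and replicates 2 and 4 as male in both groups, so sex cannot be told apart from any unlabelled batch that follows odd and even numbers. Arntl, the symbol of Bmal1, averaged 33.7 ± 3.01 CPM in Bmal1cKO and 46.5 ± 3.29 CPM in Bmal1WT (SD, n = 4 each). All 4 Bmal1cKO values lay below all 4 Bmal1WT values, and the log2 fold change was -0.47 ± 0.08 (SE), at an edgeR adjusted p = 0.0611 (0.0358 with the replicate number as a block, 5.96e-05 to 0.693 over all alternatives). Counts were summed over all exons of the gene, deleted or not. The 10 keratinocyte markers summed to between 32404 and 44931 CPM per library.

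Cd207 (chromosome 6, 83671215 to 83677857) was counted at 13.2, 5.67, 12.97 and 11.6 CPM in Bmal1cKO replicates 1 to 4, against 12.2, 3.18, 20.1 and 6.86 CPM in Bmal1WT replicates 1 to 4. All 4 Bmal1cKO values lay within the wider range of the Bmal1WT values, and replicate 2 was the lowest library in each group. The means were 10.8 ± 3.52 CPM in Bmal1cKO and 10.6 ± 7.34 CPM in Bmal1WT (SD, n = 4 each), and the log2 fold change was 0.03 ± 0.48 (SE; adjusted p = 0.996 by edgeR). In bulk RNA, fewer Langerhans cells and less RNA of a gene per cell cannot be told apart.

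Epcam (chromosome 17, 87635979 to 87651129) behaved differently from the other 9 genes in being nearly level across the libraries. It was counted at 131, 109.7, 123 and 104 CPM in Bmal1cKO replicates 1 to 4, against 132, 126, 119.95 and 127 CPM in Bmal1WT replicates 1 to 4. The highest library was 1.27 times the lowest, where this ratio was 6.32 for Cd207, and the groups overlapped. The log2 fold change was -0.11 ± 0.07 (SE, edgeR adjusted p = 0.770). Per kilobase of annotated exon, Epcam stood at 53.3 ± 5.63 CPM in Bmal1cKO and 57.5 ± 2.28 CPM in Bmal1WT, and Cd207 at 7.12 ± 2.31 and 6.95 ± 4.82 CPM (SD, n = 4 each).

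H2-Aa, H2-Ab1 and H2-Eb1 encode the alpha chain of I-A, the beta chain of I-A and the beta chain of I-E, the classical class II molecules of the mouse. They lie within chromosome 17 from 34257689 to 34316674. H2-Ab1 was counted at 74.3, 28.7, 99.1 and 54.4 CPM in Bmal1cKO replicates 1 to 4, against 73.2, 17.0, 92.8 and 27.9 CPM in Bmal1WT replicates 1 to 4. Replicate 3 was the highest and replicate 2 the lowest in both groups, and the 4 female libraries lay above the 4 male ones. H2-Aa was at 66.2, 26.4, 87.5 and 51.9 CPM in Bmal1cKO, against 66.7, 14.6, 82.7 and 27.5 CPM in Bmal1WT, in the same order of replicates. H2-Eb1 was at 72.3, 32.0, 88.2 and 54.1 CPM in Bmal1cKO, against 66.8, 19.6, 84.7 and 30.5 CPM in Bmal1WT. The female libraries of the 2 groups were close for all 3 genes, whereas both Bmal1cKO male libraries exceeded the Bmal1WT male library of the same number. Log2 fold changes, Bmal1cKO over Bmal1WT, were 0.28 ± 0.52 for H2-Ab1, 0.28 ± 0.51 for H2-Aa and 0.29 ± 0.45 for H2-Eb1 (SE), with edgeR adjusted p = 0.944, 0.944 and 0.930.

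Cd74, whose product guides class II chains to the endosome, had the highest mean of the 10 per kilobase of exon, at 75.1 ± 33.6 CPM in Bmal1cKO and 58.8 ± 39.7 CPM in Bmal1WT (SD, n = 4 each), which in both groups differed from that of Epcam by less than its own spread. Its values were 147, 56.7, 189.7 and 111 CPM in Bmal1cKO replicates 1 to 4, against 146, 32.1, 165 and 51.8 CPM in Bmal1WT replicates 1 to 4. It was higher in Bmal1cKO in all 4 same-numbered pairs, by little in replicates 1 and 3, while the groups as wholes overlapped. The log2 fold change was 0.35 ± 0.52 (SE, edgeR adjusted p = 0.927), and 0.52 ± 0.16 with the replicate number as a block (edgeR adjusted p = 0.262, the lowest of the alternatives, which reached 0.9997).

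H2-DMa and H2-DMb1 encode the pair that exchanges the invariant chain remnant for peptide. H2-DMa was at 10.96, 4.71, 12.3 and 8.41 CPM in Bmal1cKO replicates 1 to 4, against 11.2, 3.74, 10.4 and 4.63 CPM in Bmal1WT replicates 1 to 4. H2-DMb1 was at 15.5, 9.04, 17.0 and 13.9 CPM in Bmal1cKO, against 16.1, 7.62, 15.6 and 8.87 CPM in Bmal1WT. Replicate 2 was again the lowest in each group, and the spread was narrower than for the classical chains, 3.29-fold from lowest to highest library for H2-DMa and 2.23-fold for H2-DMb1. The log2 fold changes were 0.28 ± 0.39 and 0.20 ± 0.27 (SE, edgeR adjusted p = 0.922 and 0.916). H2-DMb1 has a close paralog, H2-DMb2, which held 1961 counts over all libraries beside its own 4170, and H2-DMa shares 360 exon bases with Brd2 on the other strand, a gene with 75636 counts, so the levels of both are uncertain.

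Ciita was counted at 6.39, 2.27, 6.26 and 3.81 CPM in Bmal1cKO replicates 1 to 4, against 6.16, 1.67, 6.66 and 2.21 CPM in Bmal1WT replicates 1 to 4. The 4 female values lay between 6.16 and 6.66 CPM whatever the genotype, and the 4 male values between 1.67 and 3.81 CPM. Its log2 fold change was 0.16 ± 0.48 (SE, edgeR adjusted p = 0.971). Ciita shares 329 exon bases with Dexi on the other strand, which held 5898 counts beside the 1434 of Ciita. Cd86 was the least abundant, at 1.84, 0.798, 2.61 and 1.33 CPM in Bmal1cKO, against 1.93, 0.513, 2.39 and 0.529 CPM in Bmal1WT, from 20 to 121 counts per library. Its log2 fold change was 0.29 ± 0.54 (SE, edgeR adjusted p = 0.945), and the groups overlapped. Per kilobase of exon, Ciita and Cd86 averaged 0.464 and 0.407 CPM over the 8 libraries, below H2-DMa at 2.41 CPM and H2-DMb1 at 7.71 CPM.

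**Figure D1:**
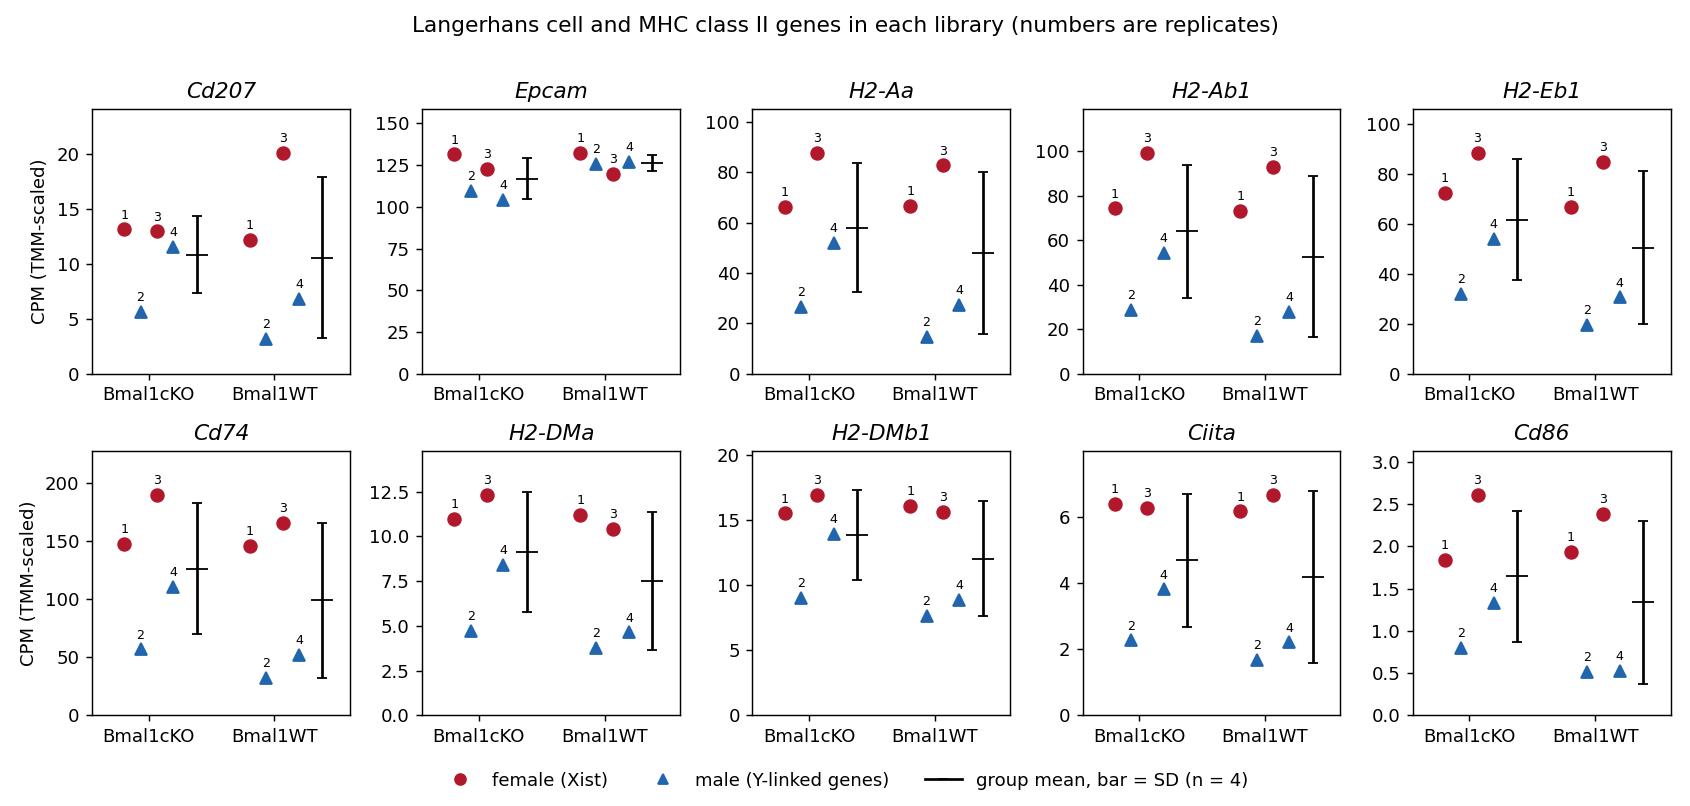
CPM of the 10 genes in each library, Bmal1cKO left of Bmal1WT, with the replicate number beside each point, circles for female and triangles for male libraries, and the group mean with its SD as a bar (n = 4). For every gene but Epcam the 4 circles lie above the 4 triangles, as for Ciita with 6.16 to 6.66 CPM in female against 1.67 to 3.81 CPM in male libraries, and the 2 genotypes overlap.

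Between the genotypes, 0 of the 10 genes passed an edgeR adjusted p of 0.05, against 34 of 19646 genes tested (0.173%). At an unadjusted p under 0.05 the count was 0 of 10, against 8.3% of all genes, and DESeq2 and limma voom called 0 of 10 as well, with 1.28% and 0.148% of all genes called. Of the 10 log2 fold changes 9 were above 0 and 1, that of Epcam, below it. Their median was 0.28, beside -0.01 for all genes tested, and the SE of 8 of them lay between 0.39 and 0.54. None of the 10 had groups that did not overlap, against 5.15% of all genes tested. A miss of the threshold does not show equal levels.

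The genotype difference was looked at within each sex, since the female and male libraries lay far apart. Between the 2 Bmal1cKO and the 2 Bmal1WT female libraries, the 10 log2 fold changes ran from -0.31 for Cd207 to 0.12 for Cd74, with a median of 0.04. Between the male libraries they ran from -0.24 for Epcam to 1.03 for Cd86, with a median of 0.78 and 9 of 10 above 0. The male values were 1.00 ± 0.33 for Cd74, 0.90 ± 0.37 for H2-Aa, 0.89 ± 0.33 for H2-Ab1 and 0.78 ± 0.43 for Cd207 (SE). EdgeR called 0 of 10 genes among the female libraries (0.0657% of all genes called there) and 0 of 10 among the male ones (0.51% called). At an unadjusted p under 0.05 there were 0 of 10 among the female and 6 of 10 among the male libraries, beside 5.92% of all genes in the female and 11.6% in the male ones. The difference between the sexes in the genotype effect was tested as an interaction, and 0 of 10 genes passed, with edgeR adjusted p = 0.739 to 0.770 (0.00509% of all genes called). With the replicate number as a block edgeR called 0 of 10 genes (0.774% of all genes), and with sex as a covariate 0 of 10 (0.606%). The block left 5 of 10 at an unadjusted p under 0.05, beside 11.5% of all genes. The blocked log2 fold changes had a median of 0.38, with 0.44 ± 0.15 for H2-Ab1 and 0.41 ± 0.13 for H2-Eb1 (SE, edgeR adjusted p = 0.305 and 0.263). Cd74, H2-Ab1 and H2-Eb1 were higher in Bmal1cKO in all 4 same-numbered pairs, Epcam in 1, and the other 6 genes in 3 of 4. H2-Ab1 in Bmal1cKO was 1.02 and 1.07 times its Bmal1WT value in the female pairs 1 and 3, and 1.69 and 1.95 times in the male pairs 2 and 4.

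**Figure D2:**
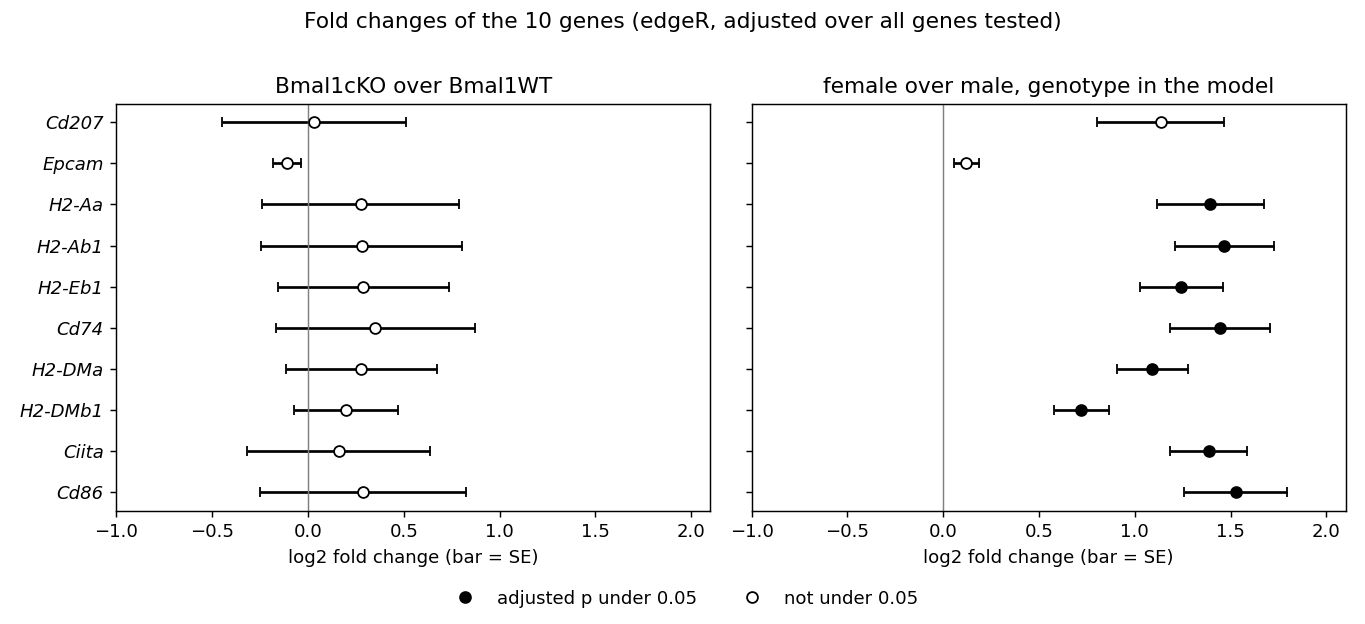
Log2 fold changes of the 10 genes with their SE as bars, Bmal1cKO over Bmal1WT on the left and female over male, with genotype in the model, on the right; filled points have an edgeR adjusted p under 0.05. On the left all 10 points are open and 9 lie above 0, and on the right, with the 8 libraries counted separately, 8 are filled and those of Cd207 (1.13) and Epcam (0.12) are open.

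Class II genes were higher in the libraries read as female when all 8 libraries were counted separately, and 0 were called when each replicate number was counted once. Female over male, with genotype in the model, 8 of the 10 genes passed an edgeR adjusted p of 0.05, all of them higher in female libraries, against 1.84% of all genes tested that were called and 1.18% that were called higher in female. This comparison was added after the data had been seen. Sex is the same within a replicate number, and same-numbered libraries of the groups moved together, more than most same-sex libraries of other numbers did. Whether a number is a pair was not tested and is not known. If it is, the 4 libraries per sex stand for 2 numbers each. With the counts of same-numbered libraries summed, 2 female against 2 male, edgeR called 0 of 10 genes (0.143% of all genes called, 0.0736% as higher in female), and 9 of 10 had an unadjusted p under 0.05 beside 14.4% of all genes. The log2 fold changes stayed close, as for Ciita with 1.37 ± 0.21 (SE, edgeR adjusted p = 0.0921) and H2-Aa with 1.35 ± 0.29 (edgeR adjusted p = 0.155). The values that follow count the 8 libraries separately. H2-Ab1 averaged 84.8 ± 13.1 CPM in female and 32.0 ± 15.9 CPM in male libraries (SD, n = 4 each), with a female over male log2 fold change of 1.47 ± 0.26 (SE; adjusted p = 0.0302 by edgeR). Cd74 averaged 162 ± 20.5 CPM in female and 62.9 ± 33.7 CPM in male libraries (1.45 ± 0.26, edgeR adjusted p = 0.0324). Ciita averaged 6.37 ± 0.218 CPM in female and 2.49 ± 0.920 CPM in male libraries (1.39 ± 0.20, edgeR adjusted p = 0.0165), the smallest adjusted p of the 10. All 4 female values lay above all 4 male values in these genes.

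The other called genes were H2-Aa (1.39 ± 0.28), H2-Eb1 (1.24 ± 0.22), H2-DMa (1.09 ± 0.19), H2-DMb1 (0.72 ± 0.14) and Cd86 (1.53 ± 0.27; log2 fold change female over male ± SE), with edgeR adjusted p = 0.0278 to 0.0434. Cd207 had 14.6 ± 3.68 CPM in female and 6.82 ± 3.52 CPM in male libraries and missed the threshold (1.13 ± 0.33, edgeR adjusted p = 0.127). Its highest male value, 11.6 CPM in Bmal1cKO replicate 4, lay just under its lowest female value of 12.2 CPM. Epcam was at 127 ± 6.18 CPM in female and 117 ± 11.5 CPM in male libraries, with overlap (0.12 ± 0.07, edgeR adjusted p = 0.374). In 9 of 10 genes every female value exceeded every male value, against 5.02% of all genes tested, or 9.83% with the sexes apart in either direction. DESeq2 and limma voom also called 8 of 10, where DESeq2 called 5.13% of all genes and 2.97% as higher in female, and limma voom 1.9% and 1.22%. With no filter on low counts 9 of 10 were called, Cd207 among them, beside 6.55% of all genes and 3.57% as higher in female. In that fit the SE of Cd207 was 0.11, against 0.33 with the filter, and its edgeR adjusted p = 7.87e-23 was far below the 0.0503 to 0.581 of the other alternatives, so it is not relied on. Leaving out Bmal1cKO replicate 1 or 4 left 8 of 10 called, beside 3.04% and 1.17% of all genes. Leaving out Bmal1cKO replicate 3 or Bmal1WT replicate 2 or 3 left 1, which was Ciita, beside 0.729%, 0.478% and 0.534% of all genes. Leaving out Bmal1cKO replicate 2 or Bmal1WT replicate 1 or 4 left 0, beside 0.503%, 0.277% and 0.459% of all genes. The log2 fold change was positive for all 10 genes each time. Within Bmal1WT 6 of 10 were called (0.386% of all genes called higher in female) and within Bmal1cKO 0 of 10 (0.0%), where 8 of 10 had an unadjusted p under 0.05 beside 9.99% of all genes. The log2 fold change of H2-Ab1 was 1.06 ± 0.30 within Bmal1cKO and 1.88 ± 0.24 within Bmal1WT (SE).

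The class II chains and the invariant chain kept nearly fixed proportions from library to library. Cd74 CPM divided by H2-Ab1 CPM ran from 1.78 to 2.04 over the 8 libraries, a 1.14-fold span, while H2-Ab1 itself spanned 5.85-fold. The ratio of H2-Aa to H2-Ab1 averaged 0.912 ± 0.0321 in Bmal1cKO and 0.912 ± 0.0518 in Bmal1WT (SD, n = 4 each). The span of the ratio to H2-Ab1 widened to 1.30-fold for H2-Eb1, 1.56-fold for Ciita, 1.597-fold for Cd86 and 1.88-fold for Cd207, and it reached 1.96-fold for H2-DMa, 2.67-fold for H2-DMb1 and 6.004-fold for Epcam. Cd207 relative to H2-Ab1 was lowest in Bmal1cKO replicate 3, at 0.131, and highest in Bmal1WT replicate 4, at 0.245. Of the 10 genes 7 were highest in Bmal1cKO replicate 3, and 9 were lowest in Bmal1WT replicate 2.

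The profiles over the libraries were compared as log2(CPM + 0.5) centred on the mean of each gene, by the root-mean-square (RMS) difference between 2 genes. The closest pair was H2-Aa and H2-Ab1 at 0.057, followed by Cd74 with H2-Ab1 at 0.060 and Cd74 with H2-Aa at 0.076. Cd207 lay 0.210 from H2-Eb1 and 0.239 from H2-Aa. Epcam lay 0.750 from Cd207, no nearer than a flat profile would, which lies 0.744 away.

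**Figure D3:**
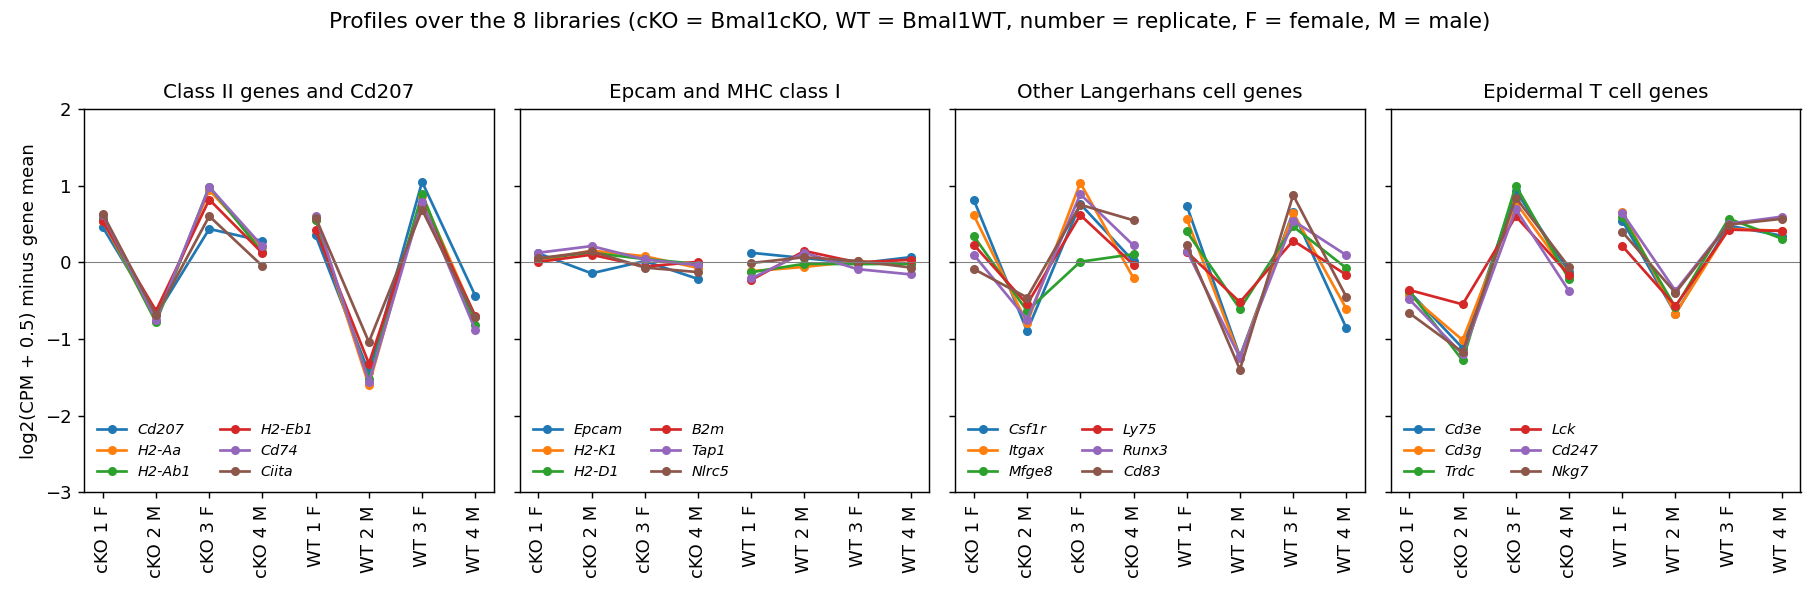
Centred log2(CPM + 0.5) of selected genes in the 8 libraries, Bmal1cKO replicates left of Bmal1WT replicates (F, female; M, male), in 4 panels for class II genes with Cd207, Epcam with MHC class I genes, other Langerhans cell genes and epidermal T cell genes. The class II lines lie nearly on each other and dip in replicate 2 of each genotype and in Bmal1WT replicate 4, Epcam and the class I genes run flat, and the T cell lines are low in Bmal1cKO replicate 1, where the class II lines are high.

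The 10 genes nearest to Cd207 by this measure, among 12817 with a mean of at least 5 CPM, were H2-Eb1, P2rx2, Prkcb, Grasp, H2-Aa, Cacna1e, Cd83, H2-Ab1, Lcp1 and Alox5, at 0.210 to 0.284. Of these, 3 belong to the 10 genes described here. Cd83 encodes a surface protein of mature dendritic cells, Lcp1 the leukocyte form of plastin and Alox5 the 5-lipoxygenase of leukotriene synthesis. With a minimum of 1 CPM, which admits 16431 genes, 5 of the 10 nearest were shared.

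Further genes of the class II pathway were read from lists chosen with earlier results of these data known. Of 9 tested class II chains and partners, 0 were called between the genotypes, beside 0.173% of all genes. Their median log2 fold change was 0.28, beside -0.01 for all genes. Higher in female libraries 6 were called, beside 1.18% of all genes, with a median of 1.34, beside 0.01 for all genes. These 6 are Cd74, H2-Aa, H2-Ab1, H2-Eb1, H2-DMa and H2-DMb1, already given among the 10 genes. The calls and both medians of this list are therefore not separate from theirs. The 3 not called in that comparison were H2-DMb2 (0.80, edgeR adjusted p = 0.082), H2-Oa (1.34, 0.199) and H2-Ob (1.36, 0.214), the last 2 encoding a pair that restrains H2-DM. H2-Eb2 held 21 counts over all libraries and was not tested.

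Of 17 genes that control class II expression, 0 were called between the genotypes (median 0.01), beside 0.173% of all genes. Ciita and Irf4, 2 of the 17, were called higher in female libraries (median 0.14), beside 1.18% of all genes. Female over male 6 of 17 had an unadjusted p under 0.05, beside 17.9% of all genes, and 4 of 17 had sexes that did not overlap, beside 9.83%. Irf4, a factor of dendritic cells and lymphocytes that melanocytes also express, was at 12.6, 4.04, 33.8 and 8.70 CPM in Bmal1cKO replicates 1 to 4, against 30.0, 7.90, 25.1 and 4.12 CPM in Bmal1WT replicates 1 to 4. Female over male its log2 fold change was 2.04 ± 0.35 (SE, edgeR adjusted p = 0.0278). Rfx5, which encodes a protein bound at the X box, was at 39.6 ± 2.49 CPM in Bmal1cKO and 35.6 ± 5.09 CPM in Bmal1WT (0.15 ± 0.10, edgeR adjusted p = 0.761; SD and SE, n = 4 each). Jak1, a kinase of the interferon receptors, was at 235 ± 11.9 CPM in Bmal1cKO and 256 ± 13.5 CPM in Bmal1WT (-0.12 ± 0.06, edgeR adjusted p = 0.628).

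Of 14 endosomal proteases and related genes, 0 were called between the genotypes (median 0.04), beside 0.173% of all genes. Ctss and March1 were called higher in female libraries (list median -0.02), beside 1.18% of all genes. Ctss encodes cathepsin S, which trims the invariant chain, and it averaged 6.03 ± 0.498 CPM in female and 2.28 ± 0.757 CPM in male libraries (1.41 ± 0.20, edgeR adjusted p = 0.0164). March1 encodes a ubiquitin ligase that removes class II and CD86 from the cell surface, at 1.93 ± 0.156 CPM in female and 0.733 ± 0.237 CPM in male libraries (1.43 ± 0.21, edgeR adjusted p = 0.0180; SD and SE, n = 4 each). The whole list, with proteases that keratinocytes also express, summed to 1678 to 1973 CPM in Bmal1cKO and 1746 to 1901 CPM in Bmal1WT.

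Of 17 tested Langerhans cell genes, which include Cd207 and Epcam, 0 were called between the genotypes (median 0.03), beside 0.173% of all genes. Csf1r, Itgax and Sirpa, 3 of the 17, were called higher in female libraries (median 0.68), beside 1.18% of all genes. Female over male 12 of 17 had an edgeR unadjusted p under 0.05, beside 17.9% of all genes. The sexes were apart in 5 of 17, beside 9.83%. Csf1r encodes the receptor for IL-34, on which Langerhans cells depend, and it was at 17.3, 4.97, 16.7 and 9.77 CPM in Bmal1cKO replicates 1 to 4, against 16.5, 3.85, 15.5 and 5.12 CPM in Bmal1WT replicates 1 to 4. The 4 female values lay above the 4 male ones, and the female over male difference was 1.51 ± 0.21 on the log2 scale (SE; adjusted p = 0.0143 by edgeR). Itgax, the gene of CD11c, differed by 1.63 ± 0.22 (edgeR adjusted p = 0.0143) and Sirpa, an inhibitory receptor, by 0.40 ± 0.07 (0.0255). Csf1r shares 873 exon bases with Hmgxb3 on the other strand.

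Keratinocytes make the signals that hold Langerhans cells in the epidermis, and Il34 was among them. Il34 was at 149.7, 102, 131 and 102 CPM in Bmal1cKO replicates 1 to 4, against 166, 99.1, 141 and 100.4 CPM in Bmal1WT replicates 1 to 4. The male values lay within a narrow band and the female ones above it, at 147 ± 14.9 CPM in female and 101 ± 1.29 CPM in male libraries (SD, n = 4 each; 0.54 ± 0.07, edgeR adjusted p = 0.0102). Of 14 niche factors tested, 0 were called between the genotypes (median -0.03), beside 0.173% of all genes. Female over male 3 were called higher, Il34, Cxcl14 and Gas6, and 1 lower, Tslp (-1.05 ± 0.17, edgeR adjusted p = 0.0231). Of all genes 1.84% were called female over male, and 1.18% as higher in female.

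Cxcl14 and Ccl20, keratinocyte chemokines of which CCL20 attracts Langerhans cell precursors, had the largest log2 fold changes between the genotypes in that list. Cxcl14 was at 756, 511, 856 and 649 CPM in Bmal1cKO replicates 1 to 4, against 404, 165, 428 and 232 CPM in Bmal1WT replicates 1 to 4, without overlap. Its log2 fold change was 1.17 ± 0.29 (SE) with an edgeR adjusted p = 0.246, which was 0.00633 with the replicate block and 0.00633 to 0.471 over the alternatives. Ccl20 averaged 2.66 ± 0.415 CPM in Bmal1cKO and 1.02 ± 0.466 CPM in Bmal1WT, also without overlap (1.36 ± 0.28, edgeR adjusted p = 0.141). Its adjusted p was 0.0334 with the block, 0.0106 without Bmal1WT replicate 3, and 0.00151 to 0.839 over the alternatives. The genotypes did not overlap in 2 of the 14 tested niche factors, beside 5.15% of all genes. At an edgeR unadjusted p under 0.05 there were 4 of 14 between the genotypes, beside 8.3%.

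Among 9 tested genes of co-stimulation and maturation, which include Cd86 and Cd83, 0 were called between the genotypes (median 0.24), beside 0.173% of all genes. At an edgeR unadjusted p under 0.05 there were 3 of 9, beside 8.3% of all genes. The genotypes did not overlap in 2 of 9, beside 5.15%. Female over male Cd86 was called higher (list median -0.16), beside 1.18% of all genes. Icam1, an adhesion molecule that keratinocytes also express, averaged 49.9 ± 8.64 CPM in Bmal1cKO and 32.9 ± 5.08 CPM in Bmal1WT (0.60 ± 0.14, edgeR adjusted p = 0.189, 0.00350 with DESeq2 to 0.839 over the alternatives). Relb, an NF-kB subunit, averaged 29.5 ± 1.95 CPM in Bmal1cKO and 23.9 ± 3.11 CPM in Bmal1WT (0.30 ± 0.09, edgeR adjusted p = 0.404). Fscn1, the actin bundler of mature dendritic cells, averaged 1.29 ± 0.688 CPM in Bmal1cKO and 2.82 ± 1.41 CPM in Bmal1WT (-1.13 ± 0.44, edgeR adjusted p = 0.537).

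MHC class I genes are expressed by keratinocytes too. H2-K1, a classical class I heavy chain, was at 1323, 1446, 1374 and 1236 CPM in Bmal1cKO replicates 1 to 4, against 1200.2, 1248, 1313 and 1287 CPM in Bmal1WT replicates 1 to 4. Its log2 fold change was 0.09 ± 0.08 between the genotypes and -0.002 ± 0.07 female over male (SE, edgeR adjusted p = 0.8288 and 0.993). Of 17 class I and loading genes, 0 were called in either comparison, beside 0.173% of all genes between the genotypes and 1.84% female over male. At an edgeR unadjusted p under 0.05 there were 5 of 17 between the genotypes, beside 8.3% of all genes. Female over male there were 0 of 17, beside 17.9% of all genes. The genotypes did not overlap in 2 of 17, beside 5.15% of all genes. Their median log2 fold change was 0.10 between the genotypes, with 14 above 0, and -0.01 female over male. Those of smallest p between the genotypes were H2-Q7, a non-classical heavy chain (0.26 ± 0.08, edgeR adjusted p = 0.404), Psmb8, a subunit of the immunoproteasome (0.21 ± 0.07, 0.454), and Tapbp, the peptide-loading factor tapasin (0.13 ± 0.05, 0.549).

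Markers of leukocytes in general and of epidermal T cells had positive female over male medians too. The 14 tested pan-leukocyte genes had a median log2 fold change of 0.00 between the genotypes and 0.90 female over male, all 14 above 0. Female over male 0 were called by edgeR, beside 1.84% of all genes, and 12 had an edgeR unadjusted p under 0.05, beside 17.9%. The 11 epidermal T cell genes had a median of -0.29 between the genotypes and 0.68 female over male. In both comparisons 0 were called, beside 0.173% and 1.84% of all genes. Female over male 10 of 11 were positive, and 6 of 11 had an edgeR unadjusted p under 0.05, beside 17.9% of all genes. The sexes were apart in 0 of 11, beside 9.83%. The 11 genes summed to 99.3 to 168.8 CPM in Bmal1cKO and 97.6 to 123 CPM in Bmal1WT. Cd3e, a chain of the T cell receptor complex, was at 4.96, 2.78, 13.1 and 6.04 CPM in Bmal1cKO replicates 1 to 4, against 9.89, 3.97, 9.43 and 8.56 CPM in Bmal1WT replicates 1 to 4. Thy1, a surface marker of epidermal T cells, was the 1 of these 11 genes with a positive genotype log2 fold change, the other 10 being negative. At a mean of 59.3 CPM over all libraries it was the most abundant of the 11, so their sums lean on Thy1. The log2 fold change of Thy1 was 0.54 (edgeR adjusted p = 0.421, 0.0226 to 0.794 over the alternatives). Thy1 passed with the replicate block (edgeR adjusted p = 0.0226) and not without it. Cd3e was low in the female library Bmal1cKO replicate 1, where H2-Ab1, at 74.3 CPM, was close to its value in Bmal1WT replicate 1.

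Markers of leukocytes that reside outside the epidermis were counted for comparison. The 9 matched dermal dendritic cell markers, of which 3 were tested, summed to 1.11 to 3.56 CPM in Bmal1cKO and 1.08 to 3.30 CPM in Bmal1WT, and to 2.22 to 3.56 CPM in female against 1.08 to 1.74 CPM in male libraries. The 3 tested, Flt3, Zbtb46 and Irf8, had a female over male median log2 fold change of 0.99, the direction of the class II genes. By edgeR 0 of 3 were called, and 3 of 3 had an unadjusted p under 0.05, beside 17.9% of all genes. The sexes were apart in 3 of 3, beside 9.83% of all genes. Xcr1, which defines the cross-presenting dermal dendritic cell, held 2 counts over all libraries. The 12 macrophage and neutrophil markers summed to 8.07 to 9.82 CPM in Bmal1cKO and 5.33 to 11.3 CPM in Bmal1WT, with Ms4a7 and Ly6g at 1 count each. Of them Adgre1, the gene of F4/80, which Langerhans cells also carry, was higher in female libraries (1.57 ± 0.29, edgeR adjusted p = 0.0349). The 6 matched B cell markers summed to 2.78 to 6.90 CPM in Bmal1cKO and 2.03 to 5.44 CPM in Bmal1WT, and Pax5 held 1 count. The class II chains and partners summed to 162 to 504 CPM in Bmal1cKO and 97.9 to 461 CPM in Bmal1WT. The part of these cells in the class II difference was not tested.

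Markers of the other cells of the suspension had 1 gene called female over male and 0 between the genotypes, beside 1.84% and 0.173% of all genes. Krt1, a keratin of suprabasal keratinocytes, averaged 1659 ± 263 CPM in female and 3991 ± 1579 CPM in male libraries (-1.21 ± 0.19, edgeR adjusted p = 0.0197; SD and SE, n = 4 each), with every female value below every male one. Of the genes outside the 10 called female over male, Il34 passed in all 8 fits that left out 1 library, Itgax in 7, Csf1r and Ctss in 6, Krt1 in 4, March1 and Tslp in 3, Irf4, Adgre1, Sirpa and Cxcl14 in 2 and Gas6 in 1. With same-numbered libraries summed, Irf4 was the 1 of these 12 genes that passed (edgeR adjusted p = 0.0188). The 10 keratinocyte markers as a whole had a median log2 fold change of -0.07 between the genotypes and -0.04 female over male. Dermal fibroblast markers, 7 of 8 tested, had medians of -0.93 and -0.92, with 0 called in either. Female over male all 7 were negative, and 4 of 7 had an edgeR unadjusted p under 0.05, beside 17.9% of all genes. The sexes were apart in 0 of 7, beside 9.83%. The 8 markers summed to 72.0 to 105 CPM in Bmal1cKO and 50.6 to 114 CPM in Bmal1WT. Those sums lean on Sparc, which had the highest mean of the list, 70.9 CPM. It was the 1 tested gene of the list with a positive genotype log2 fold change, against 6 negative. Melanocyte markers had medians of -0.41 and -0.44 with 0 of 6 called in either, and the 10 follicle keratinocyte markers, Epcam among them, -0.06 and -0.19 with 0 called. The part of the makeup of the suspension in the class II values was not tested.

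**Figure D4:**
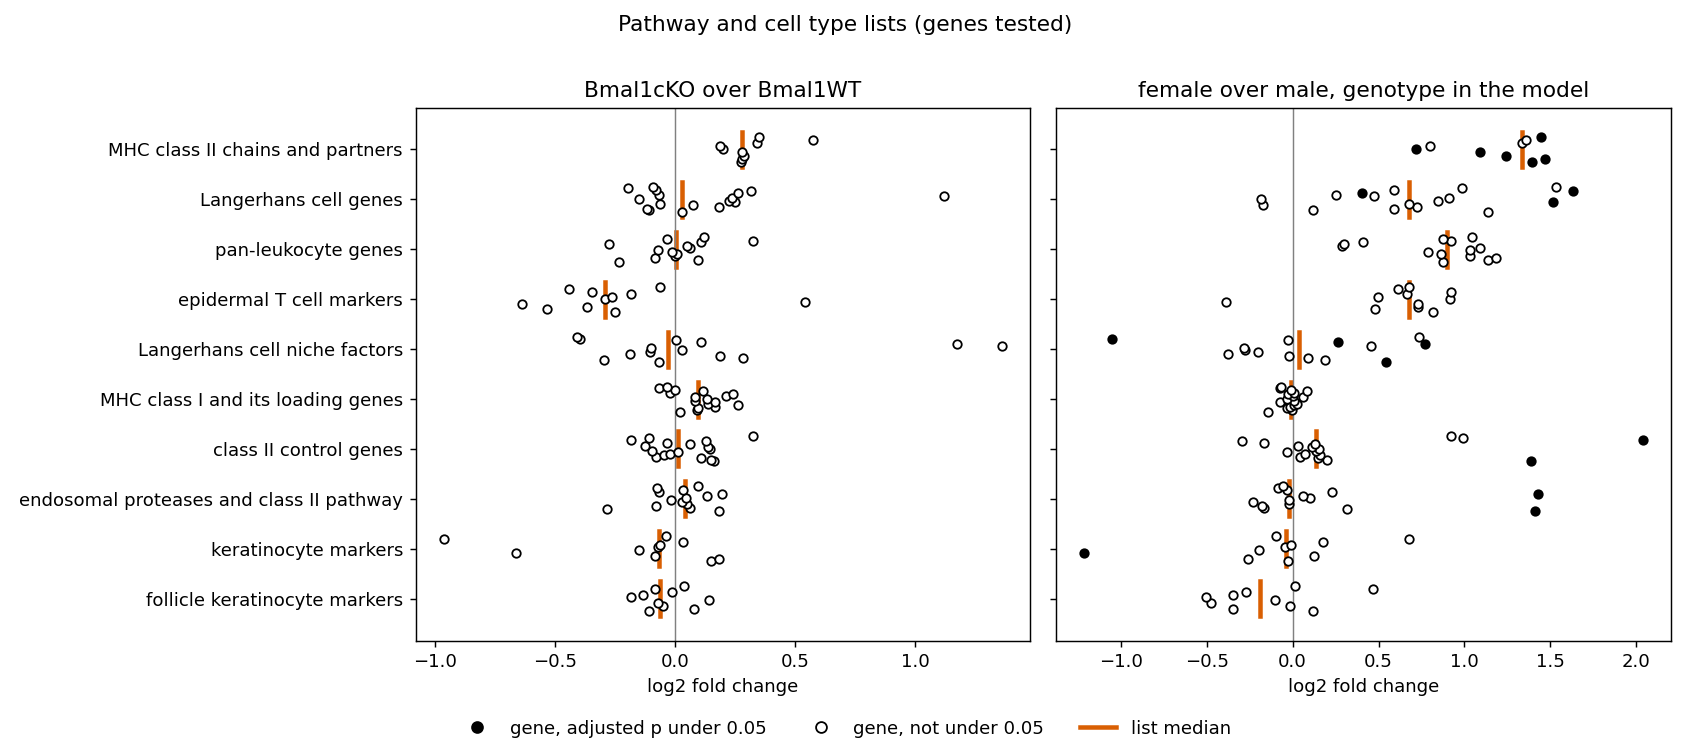
Log2 fold changes of the tested genes of 10 lists, Bmal1cKO over Bmal1WT on the left and female over male, with genotype in the model, on the right; each circle is a gene, filled where the edgeR adjusted p is under 0.05, and the orange bar is the list median. The left panel has no filled circle, and on the right the class II chains have the highest median, 1.34, and the class I genes lie close to 0, with a median of -0.01.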

How the data were processed

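The authors deposited raw counts for each Ensembl identifier, without normalisation. The tools named per the submitters' processing notes are featureCounts, STAR 2.7.10a and Trim Galore, with the build GRCm38 (mm10); the strand setting and annotation release were not given in the sources used here. Libraries were stranded and selected for polyA RNA, per the labels' protocols. GENCODE M21 named all but 96 identifiers.

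The test was that of edgeR 4.0.16 (R 4.3.3): filterByExpr (minimum count 10, minimum total 15), TMM scaling, the two-sided quasi-likelihood F-test and Benjamini-Hochberg adjustment over all genes tested, called under 0.05. Each SE is the absolute log2 fold change divided by the square root of the F statistic of that test. Genotype was the only term, and female over male had genotype in the model. DESeq2 1.42.0, limma voom 3.58.1, relative log expression (RLE) size factors, total counts, no filter, a replicate block, sex as a covariate, each sex alone, leaving out each library and, added last, summing same-numbered libraries were alternatives. The code was tested on simulated data. No pair of libraries agreed within sampling noise, and the labels do not say that each is a separate animal, so p-values may measure technical spread.

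Libraries with the same number in both groups moved together around their means (correlations 0.33, 0.48, 0.39 and 0.37 across genes, each over 0.1). The number was used as a block, and to sum libraries, in alternative fits only. The main genotype fit had no pairing. Same-sex libraries of other numbers gave 0.35, 0.16, 0.15 and 0.17. Of these, only the 0.35, between Bmal1cKO replicate 3 and Bmal1WT replicate 1, reached the range of the same-numbered values. Same-numbered libraries are also of the same sex, and whether the numbers are pairs was not tested.

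The 10 genes and all lists were chosen with earlier results of these data known. Named were all 10 genes, Arntl, list genes called, up to 3 list genes of smallest p above 1 CPM, and the 10 nearest to Cd207. H2-K1, Cd3e, the genes at or near 0 counts and those called female over male were named after their values were seen.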

Additional observations from a re-analysis of the deposited data

Results flagged for a closer look

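Ccl20 was at 1.72 CPM in Bmal1WT replicate 3, far from the other 3 Bmal1WT libraries, at 0.777, 0.872 and 0.728 CPM. By Dixon's test for a sample far from its group this was the 1 flag in 78 groups examined (39 genes), where chance flags about 1 in 20.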

How the results depend on the processing

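Between the genotypes, 0 of the 10 genes were called under every alternative run, and of 170 values of their log2 fold changes 155 kept their direction. The others turned sign: in female libraries alone Cd207 was -0.31, Ciita -0.019 and Epcam 0.014, and with 1 library left out Cd207 ran from -0.26 to 0.55, Ciita from -0.092 to 0.49, H2-Ab1 from -0.0050 to 0.71, H2-Aa from -0.017 to 0.68 and Cd86 from -0.020 to 0.74. Leaving out 1 library moved Cd74 between 0.067 and 0.72, H2-Eb1 between 0.029 and 0.66, H2-DMa between 0.065 and 0.53 and H2-DMb1 between 0.041 and 0.37 without a change of sign. H2-DMb2, a paralog outside the 10, was -0.0091 in female libraries alone and ran from -0.0094 to 0.37 with 1 library left out. All genes called numbered 34, but 252 with DESeq2, 71 with no filter, 152 with the replicate block, 119 with sex as a covariate, 13 in female and 101 in male libraries alone. List genes called numbered 0, but 3 with DESeq2, 3 with the block, 2 with sex as a covariate, 2 in male libraries alone, and 0 to 1 with a library left out. The block changed no call among the 10 genes.

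Female over male, genes called numbered 361, but 1007 with DESeq2, 2233 with no filter, 31 with same-numbered libraries summed, 97 in Bmal1WT alone, 0 in Bmal1cKO alone and 55 to 606 with a library left out. Of the 10 genes 8 were called, but 9 with no filter, 6 in Bmal1WT alone, 0 in Bmal1cKO alone, 0 with same-numbered libraries summed and 0 to 8 with a library left out. The unfiltered fit gave implausibly small p-values, such as 7.87e-23 for Cd207, whose cause was not tested; Epcam was -0.012 in Bmal1WT alone. Leaving out a library also leaves fewer samples; other causes were not tested. With 20 to 121 counts per library, Cd86 is the gene whose precision depth limits most.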
